A study of Mus musculus with 8 samples.

Results

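Matrix metalloproteinases (MMPs) and the tissue inhibitors of metalloproteinases (TIMPs) were followed in bone marrow-derived dendritic cells (BMDC) that had engulfed ferroptotic cells. The rows of the deposited mouse count table were matched by Ensembl gene identifier to 9 symbols, the 6 enzymes Mmp8, Mmp9, Mmp12, Mmp13, Mmp14 and Mmp19 and the 3 inhibitors Timp1, Timp2 and Timp3. Of the 55487 genes in the table, 15411 passed the filter on low counts and were tested, and all 9 were among them.

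MMPs are zinc-dependent endopeptidases that are mostly made as inactive proenzymes and cleave collagens, elastin and other proteins of the extracellular matrix once their propeptide is removed. Most are secreted, whereas Mmp14 is held in the cell membrane by a transmembrane segment. TIMPs occupy the active site of the enzymes and also bind some proenzymes, so the balance of enzyme and inhibitor sets the activity outside the cell. Dendritic cells and macrophages use MMPs to pass through basement membranes and tissue.

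RNA was sequenced from wild-type C57/bl6 BMDC (C57BL/6J in the methods of the study), grown for 10 days from bone marrow progenitors in GM-CSF, which those methods give as 20 ng/ml with mice 6 to 8 weeks old. The control group, BMDC, received no treatment (n = 4 libraries). The other group, BMDC-fer, was co-cultured for 4 h with cells of Jurkat, an established human T-cell leukemia line, that had been exposed to 0.5 µM ML162, an inhibitor of the lipid peroxidase GPX4 that triggers ferroptosis, for 14 h (n = 4 libraries). BMDC-fer were then sorted for cells carrying cargo, and no sort of the BMDC controls is described, so that engulfment, co-culture and the sort cannot be told apart in the comparison. In both groups, the cells were one wild-type genotype, and whether libraries of a group came from separate mice is not stated in the labels, so p-values measure the spread between these libraries.

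Total counts were between 39326672 and 50532209 per library, and 3 counts, taken as the floor of detection for counting error only, corresponded to between 0.0607 and 0.0785 CPM (counts per 1e6 after TMM normalization). Libraries numbered 1 and 2 differed from those numbered 3 and 4 within each group. Between libraries of a group, the chi-square per gene was 8.97 to 40.3 within replicate pairs and 136 to 341 across them. Same-numbered BMDC and BMDC-fer libraries deviated together from their group means, but in replicates 3 and 4 each BMDC library went more closely with the other number. Effects of the 9 genes are therefore given over all libraries and within each replicate pair. Tests within a pair, and of the difference between pairs, rest on only 2 libraries of each group per pair. Their p-values measure the small spread between libraries of a pair and not that across pairs. A block for the replicate number, or else a term for the replicate pairs, is given where it changed a call. The summed level of 11 dendritic cell markers was 7756 to 17850 CPM in BMDC and 3435 to 8643 CPM in BMDC-fer, with none of the markers at 0 in any library, and 4 of them (Flt3, Ccr7, Irf4 and Dpp4) fell. That count was 9 with the replicate block, 7 by DESeq2, and 2 without BMDC-fer replicate 3 or BMDC-fer replicate 4. Of all 15411 tested genes, 911 (5.91%) were lower by the rule given below, 1253 (8.13%) with the replicate block and 1398 by DESeq2. Neutrophil markers summed to 53.8 to 276 CPM in BMDC and to 21.1 to 59.3 CPM in BMDC-fer, where 1 library had 3 of the 11 at 0, and 5 of them (S100a9, Ngp, Ly6g, Retnlg and Elane) fell. That count was 9 with the replicate block and 8 by DESeq2. With edgeR it was 2 without BMDC replicate 1 or BMDC replicate 4, 1 without BMDC replicate 3, BMDC-fer replicate 2 or BMDC-fer replicate 3, and 0 without BMDC-fer replicate 4. In that last fit 9 of the 11 had an unadjusted p of at most 0.05, and the share of all tested genes with such a p was not taken. Of all tested genes, 591 and 603 were called lower without BMDC replicates 3 and 4. Without BMDC-fer replicates 2, 3 and 4 the numbers were 494, 548 and 371. Macrophage markers summed to 2939 to 3899 CPM in BMDC and 3337 to 5295 CPM in BMDC-fer. Over all libraries 1 of the 10, Adgre1, fell and the other 9 were not called, and the median log2 fold change of the 10 was 0.46. Within replicates 1 and 2, 4 were called higher and 1 lower, against 9.36% and 12.9% of all tested genes. Within replicates 3 and 4, 3 were called higher and 1 lower, against 16.8% and 16.2%. Markers of stromal cells, which are rich sources of MMPs and TIMPs in tissue, summed to only 1.77 to 5.12 CPM in BMDC and 1.29 to 4.92 CPM in BMDC-fer. In such bulk samples, fewer cells of a type and less RNA per cell cannot be told apart, and the part of these markers in the results below was not tested.

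Levels of the 9 genes were first set side by side per kb of merged exons, since longer transcripts collect more reads. Mmp12, the macrophage metalloelastase, stood first in both groups with a mean level of 815 ± 591 CPM per kb in BMDC and 1237 ± 557 CPM per kb in BMDC-fer (SD, n = 4). Its reads made up 0.223 to 0.932% of all counts in BMDC and 0.463 to 1.20% in BMDC-fer. Mmp8, the neutrophil collagenase, came next at 315 ± 143 and 446 ± 151 CPM per kb. In BMDC, the ranges of Mmp12 and Mmp8 overlapped, and in BMDC-fer they did not.

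The enzymes of the middle of the order were Mmp13 at 36.8 ± 22.2, Mmp19 at 31.5 ± 30.6 and Mmp14 at 18.7 ± 1.86 CPM per kb in BMDC, with the inhibitor Timp2 among them at 19.0 ± 4.73 CPM per kb. Neighbours among these overlapped in BMDC. In BMDC-fer, Mmp14 at 44.7 ± 7.06 CPM per kb stood above Timp2 at 28.0 ± 1.20 CPM per kb with no overlap of the ranges. With the length of the longest protein-coding transcript, Mmp14 stood above Timp2 in BMDC too, at 34.5 ± 3.42 against 19.9 ± 4.97 CPM per kb. The order of these genes thus depends on the length used. Mmp9, the gelatinase B, followed at 8.45 ± 1.59 CPM per kb in BMDC and 7.18 ± 4.13 CPM per kb in BMDC-fer. Timp1 was lower still at 3.67 ± 2.06 and 5.10 ± 1.49 CPM per kb, and its range overlapped that of Mmp9 only in BMDC-fer. Timp3, the inhibitor that binds to the matrix, was last in both groups at 0.179 ± 0.0690 and 0.0462 ± 0.0228 CPM per kb. The secreted enzymes Mmp12 and Mmp8 thus exceeded each of the inhibitors in the level of transcript per kb in every library.

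**Figure D1:**
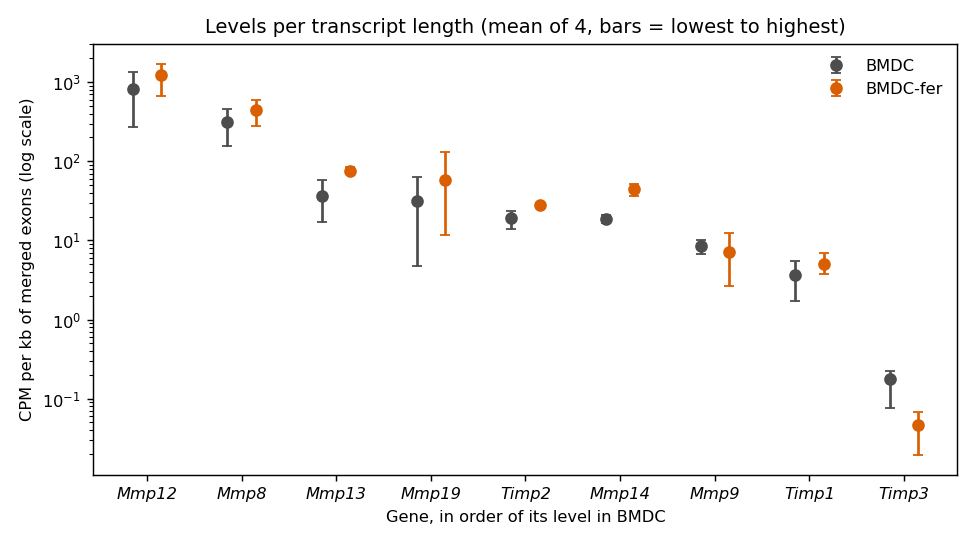
Level of each gene in CPM per kb of merged exons on a log axis, ordered by the level in BMDC. Points are means of 4 libraries and bars run from the lowest to the highest library. Mmp12 and Mmp8 stand above all other genes in both groups, and Timp3 stands last at 0.179 CPM per kb in BMDC and 0.0462 CPM per kb in BMDC-fer.

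To ask which of these genes differed in BMDC carrying ferroptotic cargo, each was compared between the groups with edgeR's quasi-likelihood test. A call required a Benjamini-Hochberg adjusted p, over all tested genes, of at most 0.05 and a log2 fold change of at least 0.58 in size. Mmp14 rose and Timp3 fell, and the other 7 genes were not called. Of the 15411 tested genes, 9.38% were called by the same rule, 3.47% higher and 5.91% lower in BMDC-fer, and 2 of the 9 genes were. The groups did not overlap for 3 genes that were higher in BMDC-fer (Mmp13, Mmp14 and Timp2) and for 1 that was lower (Timp3), where 22.9% of all tested genes did not overlap, 11.3% higher and 11.6% lower. The median log2 fold change of the 9 genes was 0.56, and that of all tested genes was 0.00069. Mmp8, Mmp12, Mmp13, Mmp14, Mmp19, Timp1 and Timp2 were each higher in BMDC-fer than in the BMDC library of the same number in 4 of 4 replicates. The share of all tested genes with this pattern was not taken, so the number of members showing it cannot be set against the whole table.

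**Figure D2:**
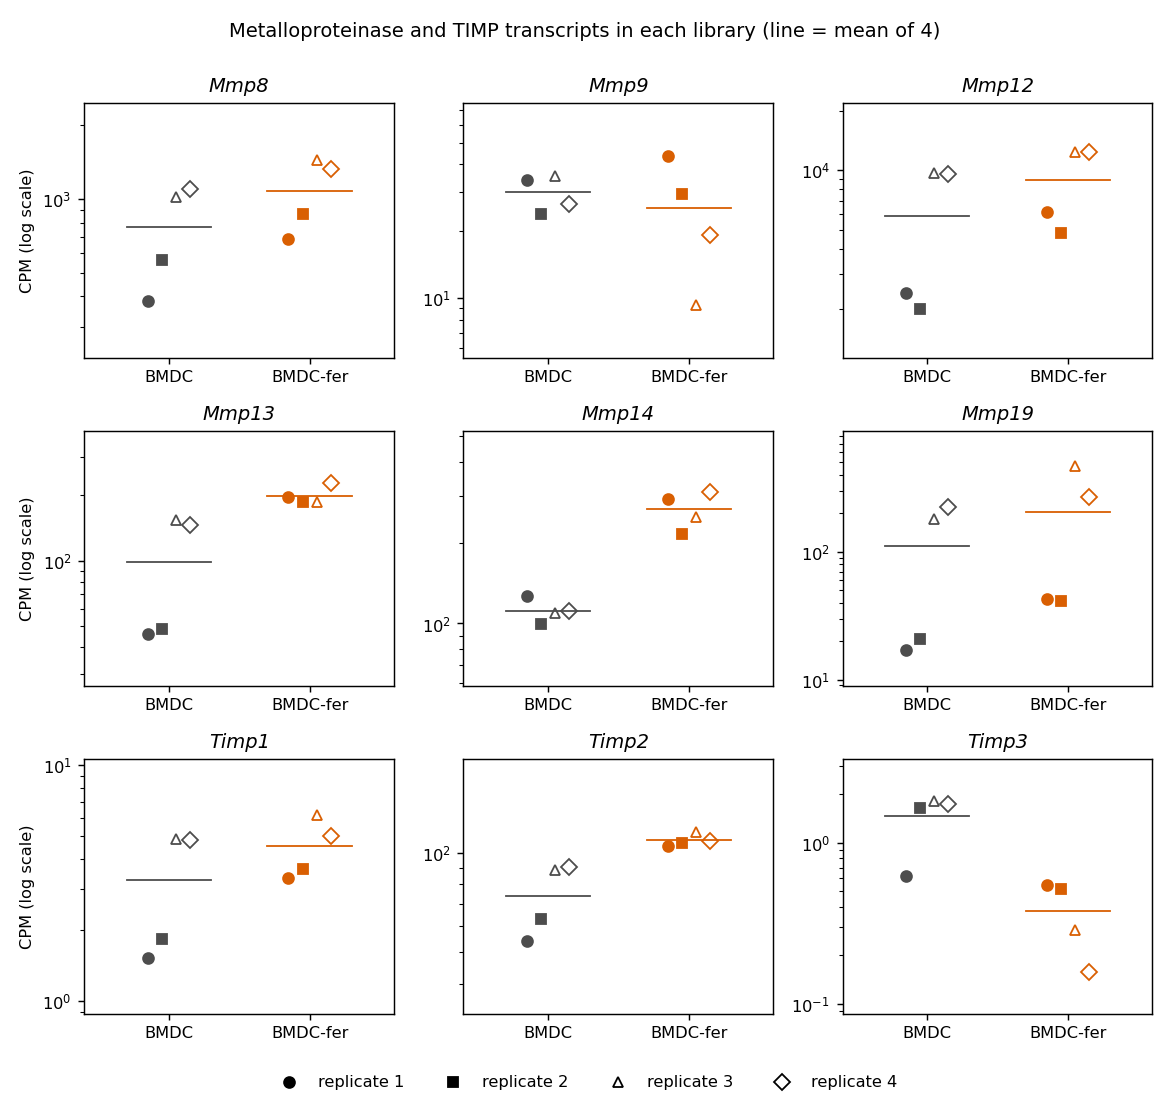
CPM of each gene in each library on a log axis whose range differs between panels, with symbols for replicates 1 to 4 and a line at the mean of 4. Mmp14 lies between 99.2 and 126 CPM in BMDC and between 216 and 308 CPM in BMDC-fer, whereas replicates 1 and 2 lie below 3 and 4 in both groups for Mmp8, Mmp12, Mmp19 and Timp1.

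Mmp14, also known as MT1-MMP, cleaves collagen at the cell surface and activates the proenzyme of Mmp2. In BMDC, its level was 126, 99.2, 110 and 111 CPM in replicates 1 to 4, and in BMDC-fer it was 293, 216, 249 and 308 CPM. Every BMDC-fer library lay above every BMDC library, and neither replicate pair stood apart from the other. The mean rose from 112 ± 11.1 to 267 ± 42.1 CPM (SD, n = 4), a ratio of 2.39, with a log2 fold change of 1.26 (SE 0.14, adjusted p = 0.00268, edgeR). Within replicates 1 and 2 the log2 fold change was 1.17 (adjusted p = 0.000846, edgeR), and within replicates 3 and 4 it was 1.34 (adjusted p = 0.000225, edgeR). The call held whichever library was left out, with adjusted p between 0.00600 and 0.0136 (edgeR). A two-sided exact permutation test gave p = 0.0286, the smallest that 4 against 4 libraries allow.

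Mmp13, collagenase 3, degrades fibrillar collagen. Its level in BMDC was 46.1, 48.5, 154 and 145 CPM in replicates 1 to 4, and in BMDC-fer it was 197, 185, 186 and 227 CPM. The BMDC libraries fell into a low and a high pair, whereas the 4 BMDC-fer libraries lay close together above both. Over all libraries the log2 fold change was 1.01 (SE 0.40, adjusted p = 0.130, edgeR) and Mmp13 was not called, although the groups did not overlap (p = 0.0286, two-sided exact permutation test). With the replicate block the log2 fold change was 1.24 (adjusted p = 0.0605, edgeR). With a term for the replicate pairs it was 1.24 (adjusted p = 0.0150, edgeR), and Mmp13 was called. Within replicates 1 and 2, Mmp13 rose with a log2 fold change of 2.02 (adjusted p = 2.80e-05, edgeR). Within replicates 3 and 4 the log2 fold change was 0.46 (adjusted p = 0.00438, edgeR), under the fold threshold. The effect in replicates 3 and 4 minus that in replicates 1 and 2 was -1.55 on the log2 scale, which passed the test of the difference (adjusted p = 0.000144, edgeR interaction term).

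Mmp12, which degrades elastin, ranked 58 in BMDC and 41 in BMDC-fer by level per kb among 55227 genes with a symbol. It was at 2408, 1991, 9669 and 9527 CPM in BMDC and at 6172, 4812, 12434 and 12389 CPM in BMDC-fer. Replicates 3 and 4 were far above 1 and 2 in both groups, so that BMDC replicates 3 and 4 exceeded BMDC-fer replicates 1 and 2 and the groups overlapped. The log2 fold change over all libraries was 0.60 (SE 0.58, adjusted p = 0.517, edgeR), and Mmp12 was not called. Nor was it with the replicate block (0.84, adjusted p = 0.0626, edgeR). With a term for the replicate pairs Mmp12 was called (0.85, adjusted p = 0.0196, edgeR). Within replicates 1 and 2 it rose with a log2 fold change of 1.32 (adjusted p = 0.000235, edgeR), and within replicates 3 and 4 the value was 0.37 (adjusted p = 0.0488, edgeR), under the fold threshold. The difference between the pairs of -0.95 passed its test (adjusted p = 0.00534, edgeR interaction term).

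Mmp8 was at 383, 562, 1014 and 1099 CPM in BMDC and at 683, 865, 1443 and 1333 CPM in BMDC-fer. Each group held a low and a high pair and the groups overlapped, and with a log2 fold change of 0.50 (SE 0.37, adjusted p = 0.393, edgeR) Mmp8 was not called. It rose within replicates 1 and 2 (log2 fold change 0.71, adjusted p = 0.0113, edgeR), and the value was 0.39 within replicates 3 and 4. The difference between the pairs did not pass its test (-0.32, adjusted p = 0.342, edgeR interaction term). Neutrophils store Mmp8 protein in their granules, and the part of the neutrophil markers given above in the values of Mmp8 was not tested.

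Mmp13, Mmp12 and Mmp8 are neighbours on chromosome 9 of GRCm38 at chr9:7272514-7283331, chr9:7344381-7369499 and chr9:7558456-7568485, all on the plus strand. They are 3 of 10 MMP genes in a stretch of 427 kb that also holds Mmp1b, Mmp3, Mmp1a, Mmp10, Mmp27, Mmp20 and Mmp7. Mmp14 lies apart at chr14:54431612-54445364 on the plus strand. Mmp9 lies at chr2:164940780-164955850 and Timp1 at chrX:20870166-20874735 on the plus strand, and Timp2 at chr11:118301069-118355740 on the minus strand. The 120 bases before the transcription start in RefSeq (GRCm38.p6) are shown for the 3 neighbours and for Mmp14, whose values did not split by replicate pair. Capitals mark matches to the AP-1 letters TGANTCA and to the TATA box letters TATAAA, searched on both strands. For Mmp12, RefSeq gives more than one start, and the window shown lies inside the gene as drawn by GENCODE.
Mmp13, chr9:7272394-7272513, plus strand: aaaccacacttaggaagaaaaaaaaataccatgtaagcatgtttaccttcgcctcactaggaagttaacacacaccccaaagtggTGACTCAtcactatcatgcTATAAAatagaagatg
Mmp12, chr9:7347254-7347373, plus strand: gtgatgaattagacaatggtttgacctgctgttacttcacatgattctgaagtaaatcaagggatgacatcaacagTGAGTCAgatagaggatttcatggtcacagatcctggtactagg
Mmp8, chr9:7558309-7558428, plus strand: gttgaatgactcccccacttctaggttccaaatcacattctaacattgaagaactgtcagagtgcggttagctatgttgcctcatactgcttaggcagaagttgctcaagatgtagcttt
Mmp14, chr14:54431478-54431597, plus strand: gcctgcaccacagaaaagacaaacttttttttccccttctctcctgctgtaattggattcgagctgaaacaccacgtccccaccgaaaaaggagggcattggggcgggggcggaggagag

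The AP-1 letters stood from -35 to -29 before the start in Mmp13 and from -44 to -38 in this window of Mmp12, and the TATA box letters from -16 to -11 in Mmp13. Windows were given for 7 of the 9 genes, all but Mmp9 and Mmp19. These genes had 8 windows, since Mmp12 had a pair of them, and its other window, further upstream, held no AP-1 letters. In the 250 bases before the start, 2 of the 8 windows held the AP-1 letters, against 6.75% of 32851 promoter windows, and 1 held the TATA box letters, against 12.4%. A loose NF-kB-type motif stood in 3 of the 8 (the other window of Mmp12, Timp1 and Timp3), against 45.8% of promoter windows. These matches describe the letters only, and binding was not measured.

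Mmp19, an enzyme of basement membrane proteins, was the gene in which the replicate pairs lay furthest apart. Its level was 16.9, 20.7, 182 and 226 CPM in BMDC and 42.8, 41.1, 465 and 269 CPM in BMDC-fer. The mean of BMDC replicates 3 and 4 was 10.8 times that of replicates 1 and 2, and the groups overlapped. Over all libraries the log2 fold change was 0.88 (SE 1.03, adjusted p = 0.597, edgeR), and Mmp19 was not called. With the replicate block it rose with a log2 fold change of 0.98 (adjusted p = 0.0282, edgeR). Within replicates 1 and 2 it rose with a log2 fold change of 1.16 (adjusted p = 0.00457, edgeR), and within replicates 3 and 4 with one of 0.85 (adjusted p = 0.0111, edgeR). Of its exon bases at chr10:128790910-128800824 on the plus strand, 22.3% overlap Tmem198b on the opposite strand. Whether reads were counted by strand is not given in the sources used here, and Tmem198b itself was at 6.47 to 10.3 CPM in BMDC and 3.11 to 6.81 CPM in BMDC-fer.

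Mmp9, gelatinase B, degrades denatured collagen and type IV collagen of basement membranes. It was at 33.8, 23.9, 35.5 and 26.4 CPM in BMDC and at 43.5, 29.5, 9.34 and 19.3 CPM in BMDC-fer. Replicates 1 and 2 were higher and replicates 3 and 4 lower than the BMDC library of the same number. Over all libraries the log2 fold change was -0.24 (SE 0.40, adjusted p = 0.722, edgeR), and it was 0.04 without BMDC-fer replicate 3. Within replicates 3 and 4, Mmp9 fell by 1.12 on the log2 scale (adjusted p = 0.0194, edgeR), whereas the value within replicates 1 and 2 was 0.34 (adjusted p = 0.425, edgeR). The difference between the pairs of -1.46 passed its test (adjusted p = 0.0333, edgeR interaction term), but not without BMDC replicate 2 (0.103), BMDC replicate 3 (0.118), BMDC-fer replicate 1 (0.0787) or BMDC-fer replicate 3 (0.0825), nor with library size only (0.0596) or by DESeq2 (0.0634).

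Among the inhibitors, Timp2 binds Mmp14 at the cell surface, where together they capture the proenzyme of Mmp2. Timp2 was at 53.9, 62.6, 88.4 and 90.6 CPM in BMDC and at 105, 107, 115 and 109 CPM in BMDC-fer. Every BMDC-fer library lay above every BMDC library, and the BMDC libraries again formed a low and a high pair. The log2 fold change was 0.56 (SE 0.17, adjusted p = 0.0672, edgeR), and Timp2 was not called. With the replicate block it rose with a log2 fold change of 0.59 (adjusted p = 0.0408, edgeR). It rose within replicates 1 and 2 (log2 fold change 0.86, adjusted p = 0.000183, edgeR), and within replicates 3 and 4 the value was 0.32 (adjusted p = 0.0114, edgeR), under the fold threshold. The difference between the pairs of -0.53 passed its test (adjusted p = 0.00826, edgeR interaction term), but not with library size only (-0.33, adjusted p = 0.0679).

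Timp1, a secreted inhibitor that pairs with Mmp9, was at 1.52, 1.83, 4.85 and 4.84 CPM in BMDC and at 3.32, 3.62, 6.18 and 5.0 CPM in BMDC-fer. The groups overlapped, since BMDC replicates 3 and 4 lay above BMDC-fer replicates 1 and 2. Timp1 was not called over all libraries (log2 fold change 0.48, SE 0.42, adjusted p = 0.483, edgeR). It rose within replicates 1 and 2 with a log2 fold change of 1.05 (adjusted p = 0.00318, edgeR), and the value was 0.21 within replicates 3 and 4. The difference between the pairs of -0.84 passed its test over all libraries (adjusted p = 0.0358, edgeR interaction term), but not without BMDC replicate 1 (0.101), BMDC replicate 3 (0.101), BMDC replicate 4 (0.0994), BMDC-fer replicate 2 (0.0806) or BMDC-fer replicate 4 (0.114), nor with library size only (0.0942) or by DESeq2 (0.0572).

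Timp3, which also inhibits ADAM proteases that shed surface proteins, was counted 27, 78, 77 and 70 times in BMDC and 27, 21, 12 and 6 times in BMDC-fer. These counts corresponded to 0.622, 1.64, 1.82 and 1.75 CPM in BMDC and to 0.546, 0.514, 0.288 and 0.157 CPM in BMDC-fer, all above the floor. All 4 BMDC-fer libraries lay below all 4 of BMDC, and BMDC replicate 1 stood well below the other BMDC libraries. Timp3 fell by 1.94 on the log2 scale (SE 0.47, adjusted p = 0.0334, edgeR). With the replicate block the value was -1.92 and no longer called (adjusted p = 0.0641, edgeR). Within replicates 3 and 4 it fell by 2.98 on the log2 scale (adjusted p = 0.00124, edgeR), and within replicates 1 and 2 the value was -1.10 (adjusted p = 0.0830, edgeR). The difference between the pairs of -1.88 did not pass its test (adjusted p = 0.0610, edgeR interaction term), but did with the replicate block (-2.01, adjusted p = 0.0330), without the filter on low counts (-1.86, adjusted p = 0.00420) and without BMDC replicate 2 (-2.74, adjusted p = 0.00788). The call of Timp3 held without BMDC replicate 1 (adjusted p = 0.0229, edgeR) and was lost without any other single library, BMDC replicates 2 to 4 and BMDC-fer replicates 1 to 4, with adjusted p between 0.0521 and 0.0873 (edgeR). The gene lies at chr10:86300372-86349506 on the plus strand, and 21.3% of its exon bases overlap Syn3 on the opposite strand. Syn3 was itself at 0.714 to 0.948 CPM in BMDC and 0.0979 to 0.288 CPM in BMDC-fer. Reads of the pair could not be told apart if strand was not used in counting. Of the short stretches of its longest transcript, 36.3% also occur in transcripts of other genes, searched on both strands. Stretches of the Syn3 overlap may be among them. How reads that match several genes were counted is not given in the sources used here.

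Set side by side, the 9 genes were called 7 times within replicates 1 and 2, all higher in BMDC-fer, where 22.3% of all tested genes were called, 9.36% higher and 12.9% lower. Mmp9 and Timp3 were the exceptions. Within replicates 3 and 4, where 33.0% of all tested genes were called, 16.8% higher and 16.2% lower, Mmp14 and Mmp19 rose and Mmp9 and Timp3 fell. The median log2 fold change of the 9 genes was 1.05 in the first pair and 0.37 in the second. The test of a difference between the pairs was passed by 5 of the 9 (Mmp9, Mmp12, Mmp13, Timp1 and Timp2), where 37.8% of all tested genes passed it. For all 5 the value was lower in replicates 3 and 4. With the replicate block, 3 of the 9 were called (Mmp14, Mmp19 and Timp2, all higher), against 13.0% of all tested genes, 4.85% higher and 8.13% lower.

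**Figure D3:**
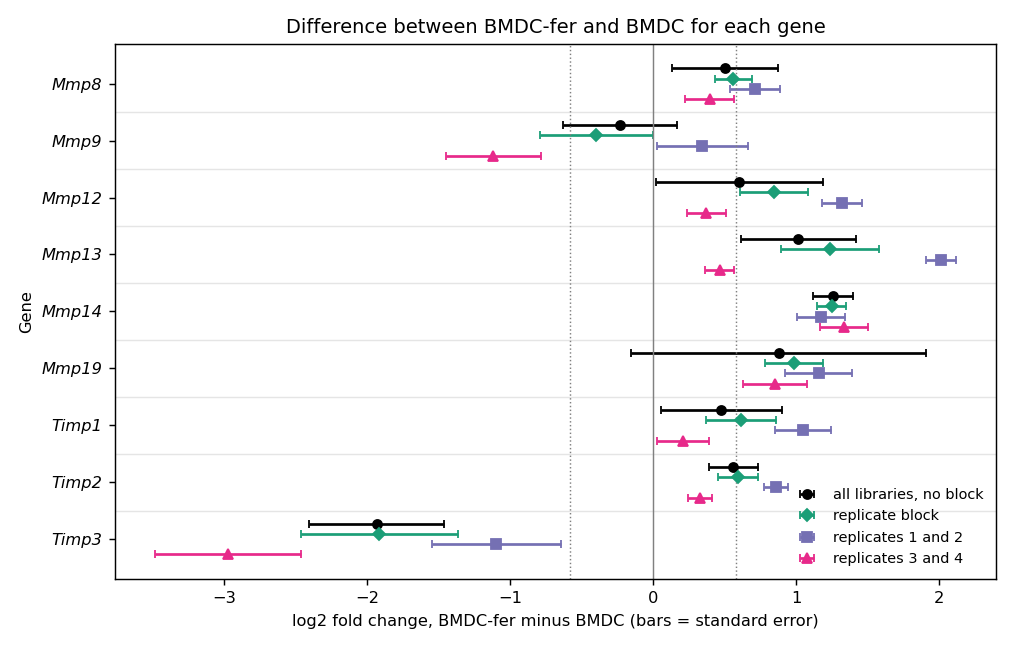
Log2 fold change of BMDC-fer over BMDC for each gene with its standard error, over all libraries, with the replicate block, and within each replicate pair. Dotted lines mark the threshold of 0.58 in both directions. The 4 estimates for Mmp14 lie between 1.17 and 1.34, whereas those for Mmp13 run from 0.46 to 2.02 and those for Mmp9 from -1.12 to 0.34.

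The balance of an enzyme and an inhibitor known to bind it was described by the log2 ratio of their levels per kb in each library, with no test. For Mmp14 over Timp2 the ratio was 0.61, 0.05, -0.30 and -0.32 in BMDC and 0.87, 0.40, 0.50 and 0.89 in BMDC-fer. BMDC replicate 1 lay within the range of the BMDC-fer libraries, and the other 3 BMDC libraries lay below it. The mean ratio was higher in BMDC-fer by 0.65, with 0.30 in the first replicate pair and 1.00 in the second. The lengths used shift the level of this ratio in both groups alike and leave the difference between the groups unchanged.

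For Mmp9 over Timp1 the log2 ratio was 2.48, 1.71, 0.88 and 0.46 in BMDC and 1.72, 1.03, -1.40 and -0.05 in BMDC-fer. Each BMDC-fer library lay below the BMDC library of its number, with a mean difference of -1.06, and the groups overlapped. For Mmp12 over Timp1 the means were 7.63 ± 0.41 in BMDC and 7.84 ± 0.37 in BMDC-fer (SD, n = 4), a difference of 0.22 that was smaller than the spread between libraries. The values were 7.60, 7.06, 7.93 and 7.92 in BMDC and 7.83, 7.35, 7.95 and 8.25 in BMDC-fer. Every BMDC-fer library thus lay above the BMDC library of its number, in replicate 3 only slightly.

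**Figure D4:**
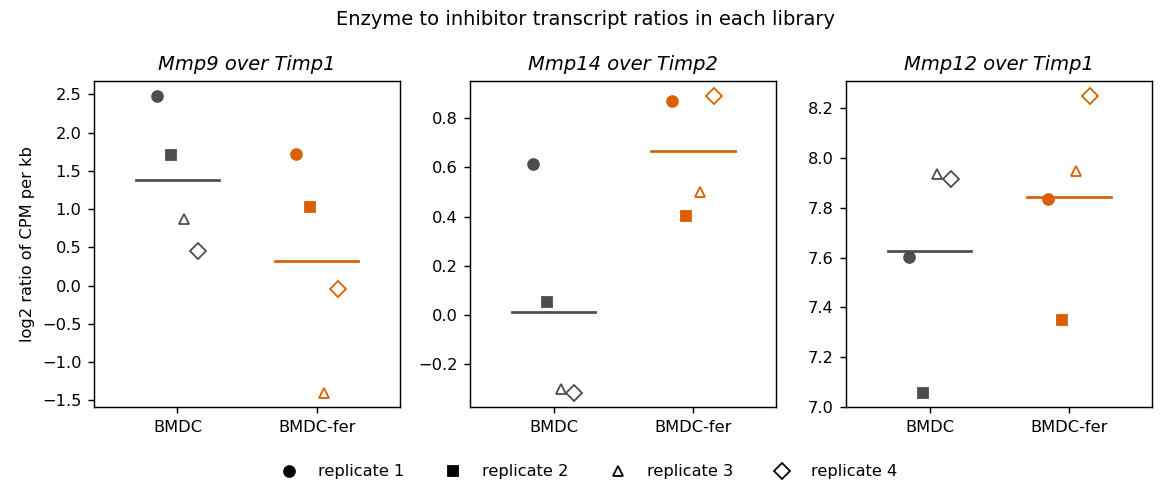
Log2 ratio of an enzyme to an inhibitor, each in CPM per kb of merged exons, in each library, with a line at the mean of 4. The mean of Mmp14 over Timp2 is 0.67 in BMDC-fer and 0.01 in BMDC, and that of Mmp9 over Timp1 is 0.33 in BMDC-fer and 1.38 in BMDC.

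Of 18 further genes of the family, 6 were tested and 3 of these were called, where 9.38% of all tested genes were. Mmp27 was higher and Mmp25 and Mmp23 were lower in BMDC-fer, and Mmp7 was at 0 in every library. Mmp25 (MT6-MMP), a membrane-anchored enzyme known from leukocytes, was at 37.1, 35.0, 31.6 and 35.2 CPM in BMDC and at 7.31, 3.01, 2.04 and 1.88 CPM in BMDC-fer. It fell by 3.28 on the log2 scale (SE 0.43, adjusted p = 0.00440, edgeR), while Mmp14, also held in the membrane, rose. It fell within both pairs, with log2 fold changes of -2.79 in replicates 1 and 2 and -4.09 in replicates 3 and 4, a difference between the pairs that passed its test (adjusted p = 0.0457, edgeR interaction term). Mmp25 has been described in neutrophils, whose markers summed to 276, 53.8, 242 and 71.2 CPM in BMDC and to 59.3, 21.1, 22.5 and 24.5 CPM in BMDC-fer, and their part in the fall was not tested. Mmp27, which lies in the chromosome 9 stretch, rose from 5.16 ± 0.953 to 10.5 ± 1.75 CPM (SD, n = 4), a log2 fold change of 1.02 (SE 0.19, adjusted p = 0.0149, edgeR). Its call was lost without BMDC-fer replicate 4 (adjusted p = 0.0563, edgeR). Mmp23, named here after its values were seen, fell by 1.41 on the log2 scale (SE 0.27, adjusted p = 0.0154, edgeR) and lost its call without BMDC-fer replicate 2 (adjusted p = 0.0502, edgeR). Mmp2, gelatinase A and the target of Mmp14 and Timp2, had means of 22.3 ± 7.51 and 31.0 ± 4.98 CPM in BMDC and BMDC-fer (SD, n = 4) and was not called (log2 fold change 0.48, adjusted p = 0.233, edgeR). It rose within replicates 1 and 2 (log2 fold change 0.87, adjusted p = 0.00512, edgeR), and the value was 0.20 within replicates 3 and 4. Mmp27 and Mmp23 were called in the same direction within each pair.

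Among 21 activators and other regulators of MMPs, 15 were tested and 3 were called, where 9.38% of all tested genes were. Plau, the urokinase that generates plasmin, an activator of proenzymes, was at 103, 108, 132 and 131 CPM in BMDC and at 322, 268, 273 and 322 CPM in BMDC-fer. The groups did not overlap, and Plau rose with a log2 fold change of 1.32 (SE 0.13, adjusted p = 0.00207, edgeR). Lcn2, a lipocalin that is abundant in neutrophils, fell by 2.73 on the log2 scale (SE 0.59, adjusted p = 0.0235, edgeR). Its call was lost without BMDC replicate 3 (0.0501), BMDC replicate 4 (0.0506), BMDC-fer replicate 2 (0.0649), BMDC-fer replicate 3 (0.0569) or BMDC-fer replicate 4 (0.0752). Reck, a membrane-anchored inhibitor of MMPs that was also named after its values were seen, fell by 1.94 on the log2 scale (SE 0.33, adjusted p = 0.0106, edgeR) from 1.85 ± 0.628 to 0.477 ± 0.140 CPM (SD, n = 4). Plau, Lcn2 and Reck were called in the same direction within each replicate pair. Thbs1, thrombospondin 1, had the highest level per kb of these regulators when both groups were averaged, with S100a10 above it in BMDC, and was not called (log2 fold change 0.11, adjusted p = 0.908, edgeR).

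**Figure D5:**
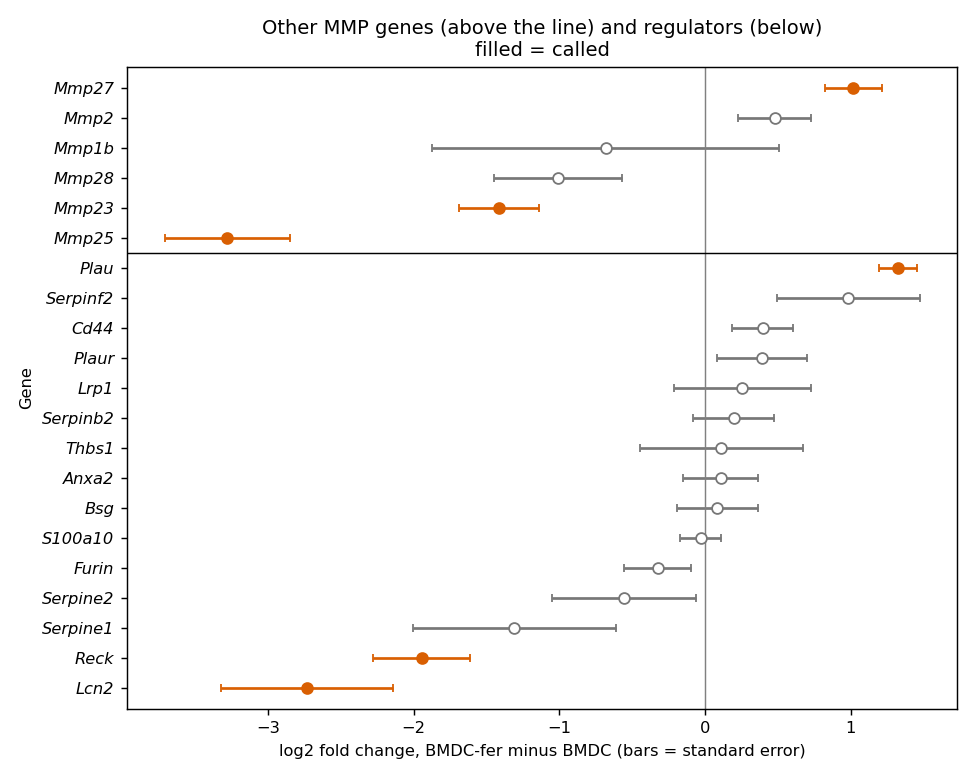
Log2 fold change of BMDC-fer over BMDC with its standard error for the other tested MMP genes, above the line, and for the tested regulators, below it. Filled points are called genes: Mmp27 and Plau to the right of 0, and Mmp25, Mmp23, Lcn2 and Reck to the left.

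Of 15 tested ADAM and ADAMTS genes, 2 were called, where 9.38% of all tested genes were. Adam15 rose (log2 fold change 0.58, adjusted p = 0.0235, edgeR), at the fold threshold, and Adam19 fell by 1.73 on the log2 scale (adjusted p = 0.0287, edgeR). By DESeq2 the value for Adam15 was 0.578, under the fold threshold, and its call was lost. The same held with RLE scaling (0.578), library size only (0.503) and a filter of at least 1 CPM in 4 libraries (0.570). Without single libraries, the estimate for Adam15 lay between 0.52 and 0.66 and its call held only without BMDC replicate 3 or BMDC replicate 4, and Adam19 was lost without BMDC replicates 1 and 2 and BMDC-fer replicates 2, 3 and 4, each left out in turn (adjusted p from 0.0540 to 0.0905, edgeR). Adam8, the ADAM gene with the highest level per kb, was not called (log2 fold change 0.54, adjusted p = 0.0696, edgeR), but was without BMDC replicate 1 (0.69, adjusted p = 0.0300, edgeR) and within replicates 3 and 4 (0.63, adjusted p = 0.0187, edgeR). Adam19 fell within each replicate pair, whereas Adam15 rose within replicates 1 and 2 (0.82) and had a value of 0.37, under the fold threshold, within replicates 3 and 4.

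Of 16 tested cathepsins and cystatins, 2 were called, where 9.38% of all tested genes were. Cstb, a cytosolic cathepsin inhibitor, rose (log2 fold change 0.86, adjusted p = 0.0273, edgeR) and Cst3, the secreted cystatin C, fell by 1.33 on the log2 scale (adjusted p = 0.0437, edgeR). Cstb lost its call without BMDC-fer replicate 1, 2 or 4 (adjusted p from 0.0611 to 0.0654, edgeR). Cst3 lost it without BMDC replicate 1, 2 or 3 or BMDC-fer replicate 2, 3 or 4 (adjusted p from 0.0536 to 0.123, edgeR). Ctss, cathepsin S of the endosomes, had the highest level per kb of the list and was not called (log2 fold change 0.45, adjusted p = 0.340, edgeR). Within replicates 1 and 2, Ctss rose (0.73, adjusted p = 0.000298, edgeR) and so did Cstb (1.35, adjusted p = 5.51e-05, edgeR), whereas within replicates 3 and 4 their values of 0.28 and 0.43 were under the fold threshold. Cst3 fell within each pair. Of 15 tested matrix proteins that MMPs cleave, 1 was called, where 9.38% of all tested genes were. It was Col4a1 of basement membranes, which fell by 0.93 on the log2 scale (adjusted p = 0.0414, edgeR) and was named after its values were seen. The Col4a1 call was lost with the replicate block (adjusted p = 0.0546, edgeR) and without any single library, BMDC or BMDC-fer (adjusted p from 0.0665 to 0.103, edgeR). Spp1, osteopontin, had the highest level per kb and was not called (log2 fold change 0.13, adjusted p = 0.935, edgeR). It rose within replicates 1 and 2 (log2 fold change 1.67, adjusted p = 5.51e-05, edgeR), the value was -0.10 within replicates 3 and 4, and the difference between the pairs of -1.77 passed its test (adjusted p = 0.000118, edgeR interaction term).

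Among tested genes whose mean count reached 100, those whose centred log2 profile over the 8 libraries lay nearest to that of Mmp14 were D330045A20Rik, Met and Slc11a1, at root mean square distances of 0.11, 0.14 and 0.17. Nearest to Mmp12 were Ctsk (0.11), Cd36 (0.17) and Gstm2 (0.18), so that a cathepsin shared its division by replicate pair. Nearest to Timp3 were Slc7a5 (0.40), Cep85l (0.44) and Adora2a (0.45), at larger distances. These genes were picked out of 11458 to 11459 candidates by this likeness, which is a description.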

How the data were processed

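The labels place 4 libraries in BMDC and 4 in BMDC-fer, numbered 1 to 4 in each. Raw counts per mouse gene were deposited by the authors, who aligned reads by HISAT2 and assigned them by featureCounts with no normalization. The submitters' processing notes name CASAVA, HISAT2, featureCounts, DESeq2 and mm10. Versions, the annotation and the use of strand are not given in the sources used here, and the human counts that the methods mention were not analysed here.

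Symbols for 55227 of the 55487 rows, exon lengths and positions came from GENCODE M21 (GRCm38). Counts were analysed with edgeR 4.0.16 in R 4.3.3 (TMM, filterByExpr with a count minimum of 10, quasi-likelihood test, Benjamini-Hochberg adjustment), with the thresholds of the study (adjusted p 0.05, absolute log2 fold change 0.58). Differences between replicate pairs were called by adjusted p alone. Exact two-sided permutation tests compared the absolute difference in mean log2(CPM + 0.05). DESeq2 1.42.0, other normalizations and filters, a term for the replicate pairs and each library left out were alternatives. The scripts were tested on simulated data. Replicate numbers come from the sample titles. Deviations of same-numbered libraries correlated across genes with r from 0.333 to 0.470, so the numbers were taken as pairs, although the mean r was 0.320 between the other libraries of a replicate pair. No libraries differed by less than sampling noise.

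The members and gene lists were chosen with earlier results of these data known. Genes named are the 9 members, up to 4 called genes whose mean count reached 100 and the gene with the highest level per kb from each other list, and the 3 nearest profiles of each called member and of the member with the highest level.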

Additional observations from a re-analysis of the deposited data

Results flagged for a closer look

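In a group of 4 libraries, a library was singled out where its gap to the nearest other library, divided by the range of the group, exceeded the 95% critical value of Dixon's test. This held for 1 of 18 groups, Timp3 in BMDC, where replicate 1 had a value of 0.851, and chance alone gives about 1 in 20. Without this library the Timp3 call held.

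For 5 genes, the effect in replicates 3 and 4 differed from that in replicates 1 and 2 by edgeR's interaction term (second pair minus first, log2 scale). The difference was -1.55 for Mmp13, -1.46 for Mmp9, -0.95 for Mmp12, -0.84 for Timp1 and -0.53 for Timp2. For Mmp12, Mmp13, Timp1 and Timp2 the BMDC libraries 3 and 4 had higher levels than BMDC 1 and 2, and for Mmp9 the BMDC-fer libraries 3 and 4 lay below the others. What the replicate pairs share beyond their numbers is not given by the labels and was not tested.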

How the results depend on the processing

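Mmp14 kept its direction and call under every alternative run, as did Mmp25 and Plau. Of all 15411 tested genes, 1445 (9.38%) were called. The number was 2261 by DESeq2, 2815 with replicate pairs as a term and 2000 (13.0%) with the replicate block. Within replicates 1 and 2 it was 3435 (22.3%), and within replicates 3 and 4 it was 5092 (33.0%). With single libraries left out it was 565 to 1440 (565 without BMDC-fer replicate 4). Calls in the gene lists below are given beside these numbers and are not read as results about the lists. Of the 9 genes, 6 were called with replicate pairs as a term, 5 higher (Mmp12, Mmp13, Mmp14, Mmp19 and Timp2) and 1 lower (Timp3). Within the pairs 7 and 4 were called, and 1 to 2 with single libraries left out. Only 1 was called where at least 1 CPM in 4 libraries was required, which removed Timp3. The replicate block changed the calls of Mmp19, Timp2, Timp3 and Col4a1 and the pair difference of Timp3 as given above and raised the calls among cathepsins and cystatins to 4. It changed no other named call. In that list of 16 tested genes, DESeq2 gave 4, the pair term 6, replicates 1 and 2 alone 10, and single libraries left out 0 to 2. Calls among matrix proteins (15 tested in the main fit) were 2 by DESeq2, 0 without the filter, 2 with the pair term, 3 within each pair and 0 to 1 with libraries left out. Among ADAM genes (15 tested in the main fit) they were 1 with RLE scaling, library size only or the stricter filter. They were 4 with the pair term, 5 within each pair and 0 to 2 with libraries left out. Other MMP genes (6 tested) had 5 calls within replicates 1 and 2 and 2 to 3 with libraries left out. Regulators (15 tested) had 7 and 5 within the pairs and 2 to 3 with libraries left out. The difference between pairs was passed by 2 of the 9 with library size only and 3 by DESeq2. In the main fit 5 of the 9 passed it, against 37.8% of all tested genes, and the shares under the other settings are not given here. With the length of the longest protein-coding transcript, levels per kb in BMDC and BMDC-fer were 1635 and 2482 for Mmp12, 34.5 and 82.3 for Mmp14, and 0.309 and 0.0797 for Timp3, and 29.4 in BMDC-fer for Timp2. Mmp14 then moved from place 6 to 4 among the 9 genes in BMDC and from 5 to 3 in BMDC-fer. Signs turned with single libraries left out for the log2 fold changes of Mmp9 (-0.61 to 0.044, and 0.34 within replicates 1 and 2), Thbs1 (-0.26 to 0.43) and Spp1 (-0.24 to 0.68, and -0.10 within replicates 3 and 4), and for the pair differences of Mmp14 (-0.024 to 0.40) and Mmp19 (-0.76 to 0.041). The exact permutation p with libraries left out ranged from 0.0286 to 0.143 for Mmp13, from 0.0286 to 0.0857 for Timp2 and from 0.0286 to 0.0571 for Timp3. The cause was not tested. The 6 counts of Timp3 in BMDC-fer replicate 4 limit its precision.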
